A study of Mus musculus with 2 samples.

Results

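The retinoic acid pathway genes described here were 9 of the 31053 genes in the deposited tables, taken by name for their roles with earlier results of these data known. They were the retinol carrier Rbp4 and its receptor Stra6, the retinal dehydrogenases Aldh1a1, Aldh1a2 and Aldh1a3, the cellular retinoic acid binding proteins Crabp1 and Crabp2, the retinoic acid hydroxylase Cyp26b1 and the retinoic acid receptor Rarb. All 9 had unique molecular identifiers (UMIs, each standing for 1 captured RNA molecule) in both libraries. The cells were fibro/adipogenic progenitors (FAPs), mesenchymal cells of skeletal muscle that can give rise to fat and fibrous tissue, sorted as live Lin-Vcam1-Sca1+ cells from limb muscle of C57BL/6 mice (the strain as the labels give it; backcrossed to C57BL/6J by the methods) aged 3 weeks. One library came from Bap1f/f mice (labelled WT) and the other from Prx1-Cre;Bap1f/f mice (labelled cKO). Both genotypes carried floxed alleles of Bap1, a nuclear deubiquitinase, and Cre was present only in the second. Prx1-Cre is active in limb bud mesenchyme and so also reaches bone, cartilage and tendon of the same limbs, and the number of mice behind each library is not given in the sources used here. The comparison asks how the FAP transcriptome differed when Bap1 was deleted in this lineage. With 1 library per genotype, no difference between genotypes had a replicate check, no test was possible, and every interval below covers counting error only.

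Retinol travels in blood bound to RBP4 and enters some cells through STRA6. Inside the cell it is oxidized reversibly to retinal by retinol dehydrogenases, and retinal is oxidized irreversibly to retinoic acid by the ALDH1A enzymes. CRABP proteins hold retinoic acid in the cytoplasm, CYP26 enzymes degrade it, and nuclear receptors of the RAR and RXR families bind it and act on genes that carry retinoic acid response elements. Retinoic acid is known in the limb as a regulator of patterning and of connective tissue and muscle formation, and RBP4 is also made by adipocytes.

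Rarb is a textbook target of its own ligand, so its promoter is shown here as the sequence through which this pathway is usually read out. Of the 9 genes, 7 had a promoter entry (250 bases before to 50 after the start) in the RefSeq table for GRCm38.p6, and Aldh1a3 and Crabp2 had none. Promoters were searched on both strands for 2 direct repeats of the receptor half-site, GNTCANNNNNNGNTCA, the more widely spaced, and GNTCANNNGNTCA. A half-site can belong to both patterns. The first was found in 283 of 32851 promoters (0.861%) and the second in 367 (1.12%). Among the 7 genes, Rarb held the first, and none held the second. The Rarb promoter with the match, 1 of 12 promoters of the 7 genes, lay at chr14:16575427-16575726 on the minus strand. It is printed 5′ to 3′ with the matched element in capitals. This window lies inside the gene (chr14:16430839-16819156), and UMIs per gene do not show from which start the transcripts came. The element lay 53 to 37 bases before the start, at positions 16575513 to 16575529.
Rarb: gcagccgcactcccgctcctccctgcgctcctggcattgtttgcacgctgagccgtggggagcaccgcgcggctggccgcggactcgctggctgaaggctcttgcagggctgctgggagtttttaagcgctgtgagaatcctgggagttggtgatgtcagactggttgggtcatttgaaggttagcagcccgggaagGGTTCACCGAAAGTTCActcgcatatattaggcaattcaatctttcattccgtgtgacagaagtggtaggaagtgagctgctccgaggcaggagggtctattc
A match describes the letters in this window and is not evidence of binding in these cells.

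The WT-labelled library held 4103 cells and 51015705 UMIs, and the cKO-labelled library held 4378 cells and 49540066 UMIs, with medians of 12232 and 11017.5 UMIs per cell and 5 barcodes in common. Bap1 itself was not lower in the cKO-labelled library, at 21.6 CPM (UMIs of the gene scaled to 1000000 UMIs of the group; interval 20.4 to 23.0) against 17.6 CPM (16.5 to 18.8). The data give UMIs per gene and do not show which exons were read, so the deletion could not be checked here. The libraries are called by their labels throughout. The paper itself reports that Bap1 was disrupted in FAPs of this genotype, through an exon deletion that shifts the reading frame. The FAP markers Pdgfra and Cd34 had a UMI in 84.1% to 98.9% of cells, while Ptprc, Adgre1 and Cd3e (immune), Pax7, Myf5 and Myod1 (muscle stem) and Krt5 and Krt14 (epidermal) were at 0 in both libraries. The rest of these lists had UMIs, up to a share of 37.1% of cells for an epidermal and 26.3% for a muscle stem marker in the WT-labelled library, and the immune sum was 6.55 and 14.7 CPM in the WT-labelled and cKO-labelled libraries. Before deposit the authors removed cells with high levels of markers of other muscle-resident cells, and the methods do not name the genes. The genes at 0 may have been among them and are no independent check of cell identity. Xist was found in both libraries (791 and 702 CPM) and 4 Y-linked genes had 0 to 2 UMIs. The methods name males for whole-transcriptome analyses. Summed adipocyte markers (Adipoq, Plin1, Cidec, Retn and Fabp4) stood at 5.06 CPM in the WT-labelled library and 53.5 CPM in the cKO-labelled library, and summed tendon markers (Scx, Tnmd, Mkx and Thbs4) at 170 and 395 CPM. The 10 other marker lists stood between 3.67 and 44.2 CPM in either library.

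Cells were divided by the summed UMIs of Pi16, Sema3c, Anxa3 and Efemp1, which mark Dpp4+ FAPs, the population regarded as the less committed one. Cells with 25 or more of these UMIs per 10000 were taken as Dpp4-type, which gave 1050 cells (25.6%) in the WT-labelled library and 1251 cells (28.6%) in the cKO-labelled library. Dpp4, which the score did not use, stood at 298 CPM in Dpp4-type and 56.5 CPM in other cells of the WT-labelled library, and at 268 and 39.5 CPM in the cKO-labelled library. The division is a range and not a cell type. A total of 529 and 800 cells had a score of 15 to 40, and the median Smoc2 level over Dpp4-type cells, 0.725 and 0.604 UMIs per 10000, was not 0 against 8.44 and 1.87 over other cells. The medians of Cxcl14 and Col15a1 over Dpp4-type cells were 0 in both libraries. Median UMIs per cell were 13635 in Dpp4-type and 11829 in other cells of the WT-labelled library, and 11661 and 10733 in the cKO-labelled library, so shares of cells with a UMI are also given after thinning each cell to 5000 UMIs, which left out 120 and 210 shallower cells.

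Levels in these 3′ libraries are compared between groups of cells for 1 gene at a time and not between genes. A gene entered a comparison with a mean over 0.01 UMIs per 10000 in all cells and 20 or more UMIs in the compared cells, and a ratio over 3-fold was called. Between the libraries over all cells, 1 of the 9 genes was called, Stra6, where 3.12% of 12380 genes were (1.84% higher and 1.28% lower). Stra6 passed this filter through its UMIs in the cKO-labelled library. Rbp4 lay just under the limit at 2.97-fold, and Aldh1a2 and Crabp2 were 2.26-fold and 2.16-fold higher in the cKO-labelled library. At 2-fold these 4 genes were called, where 7.71% of all genes were. The median log2 ratio was 0.53 over the 9 genes and 0.10 over all genes entered. Because the 9 genes were chosen with earlier results of these data known, this is not a test of them as a set.

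**Figure D1:**
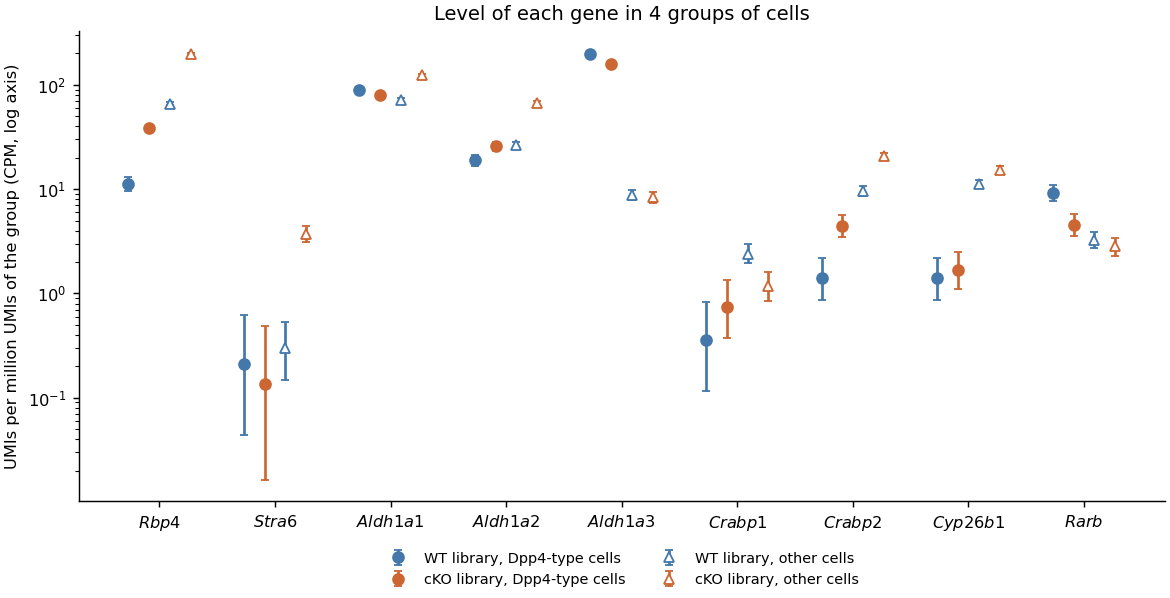
Level of each of the 9 genes in Dpp4-type (filled circles) and other cells (open triangles) of the libraries labelled WT (blue) and cKO (orange), in CPM on a log axis with exact Poisson 95% intervals. Levels are read along 1 gene and not across genes; Aldh1a3 and Rarb sat higher in Dpp4-type cells of both libraries, and Rbp4, Crabp2 and Cyp26b1 sat lower there.

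Rbp4, the carrier that brings retinol through the circulation (GRCm38 chr19:38116629-38125281, minus strand), was low in Dpp4-type cells and high in other cells of both libraries, and in each of these it was about 3 times higher in the cKO-labelled library. Its level was 11.2 CPM (9.52 to 13.1) in Dpp4-type and 66.04 CPM (63.4 to 68.7) in other cells of the WT-labelled library. The same levels of the cKO-labelled library were 38.3 CPM (35.2 to 41.6) and 199 CPM (194 to 204). No interval of these 4 groups overlapped another. The ratio of the cKO-labelled library to that labelled WT was 3.42-fold (2.87 to 4.11) in Dpp4-type cells and 3.01-fold (2.88 to 3.16) in other cells, both called, but only by a narrow margin in other cells. Rbp4 was 5.90-fold (5.02 to 6.97) lower in Dpp4-type than in other cells of the WT-labelled library and 5.19-fold (4.76 to 5.66) lower in the cKO-labelled library.

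A larger share of cells had an Rbp4 UMI in the cKO-labelled library, and the cells that did held more UMIs of it. A UMI was found in 27.0% of cells (25.6 to 28.4) of the WT-labelled library and 44.9% (43.4 to 46.4) of the cKO-labelled library, and after thinning in 16.2% and 31.9%. Among cells with a UMI, the median was 1 UMI and the highest 44 in the WT-labelled library, against 2 and 110 in the cKO-labelled library. Cells with 5 or more Rbp4 UMIs numbered 113 and 490 and held 38.2% and 64.1% of the gene's UMIs. Adipocyte markers were also higher in the cKO-labelled library: 4 of 5 had a UMI in the WT-labelled library (Cidec was at 0) and 5 of 5 in the cKO-labelled library. Their sum went from 2.34 to 10.5 CPM in Dpp4-type cells and from 6.10 to 71.8 CPM in other cells. Over all cells most of this sum was Fabp4, with 247 of 258 UMIs in the WT-labelled library and 2352 of 2651 in the cKO-labelled library. Leaving out the 9 and 97 cells with a UMI of Adipoq, Plin1, Cidec or Retn changed the log2 ratio of Rbp4 between the libraries from 1.57 to 1.503 over all cells. In other cells it went from 1.59 to 1.53, and the call there was then lost. Cells with Fabp4 alone stayed in, and their part in the level of Rbp4 was not tested.

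Stra6, the membrane receptor that takes up retinol from RBP4 (chr9:58063788-58153996, plus strand), was nearly confined to a few cells outside the Dpp4-type range of the cKO-labelled library. It had 3 UMIs in Dpp4-type and 11 UMIs in other cells of the WT-labelled library, and 2 and 129 UMIs in those of the cKO-labelled library. In other cells this was 0.298 CPM (0.149 to 0.533) against 3.71 CPM (3.097 to 4.41), or 12.4-fold (6.73 to 25.6), and the low count in the WT-labelled library makes the size of this ratio uncertain. In Dpp4-type cells the gene did not enter, and the ratio from 3 and 2 UMIs was 0.637-fold (0.0532 to 5.56). The 131 UMIs of the cKO-labelled library came from 49 of 4378 cells, 7 of which held 40.5% of them. In the WT-labelled library, 10 cells carried the gene and 1 of them held 5 of the 14 UMIs. Stra6 overlaps Ccdc33 on the opposite strand, which had 23 and 12 UMIs in all, fewer in the cKO-labelled library.

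Of the 3 enzymes that make retinoic acid from retinal, Aldh1a3 divided the 2 ranges of cells, Aldh1a1 was spread over both, and Aldh1a2 was high in a minority of cells. Aldh1a3 (chr7:66390890-66427517, minus strand) stood at 196 CPM (189 to 203) in Dpp4-type and 8.75 CPM (7.82 to 9.76) in other cells of the WT-labelled library. In the cKO-labelled library it stood at 157 CPM (151 to 164) and 8.37 CPM (7.43 to 9.39). Dpp4-type cells were thus 22.4-fold (19.9 to 25.2) and 18.8-fold (16.6 to 21.3) higher. Between the libraries Aldh1a3 differed little, with a ratio of 0.804-fold (0.760 to 0.850) in Dpp4-type cells and 0.956-fold (0.813 to 1.12) in other cells. In other cells its direction turned with the cells taken as such (log2 from -0.37 to 0.72 over the alternatives).

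The share of Dpp4-type cells with an Aldh1a3 UMI was 70.7% (67.8 to 73.4) in the WT-labelled library and 54.7% (51.9 to 57.5) in the cKO-labelled library, and 52.6% and 38.9% after thinning. In other cells the share was 7.70% and 6.27%, and 3.54% and 3.64% after thinning. Aldh1a3 climbed over the whole range of the score. It went from 5.24 CPM in cells with a score under 5 to 345 CPM at 80 or more in the WT-labelled library. In the cKO-labelled library it went from 3.85 to 295 CPM. Scores of 25 to 40 held 238 and 441 cells of the WT-labelled and cKO-labelled libraries. Scores of 80 or more held 319 and 209. At 25 to 40 Aldh1a3 stood at 51.6 and 80.7 CPM, and at 40 to 80 at 169 CPM in both. From the lowest of these ranges up, the shares with a UMI were 35.3% and 40.1%, 72.4% and 59.6%, and 94.4% and 71.3%. The part of this make-up in the ratio of Aldh1a3 was not tested. The gene whose level was most like it over cells was Anxa3, itself a score gene (Pearson r of log values 0.65 over 4103 cells and 0.52 over 4378 cells), followed by Dact2 (0.65 and 0.52) and Efhd1 (0.64 and 0.49). With Anxa3 left out of the score, Aldh1a3 stayed called in both libraries.

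**Figure D2:**
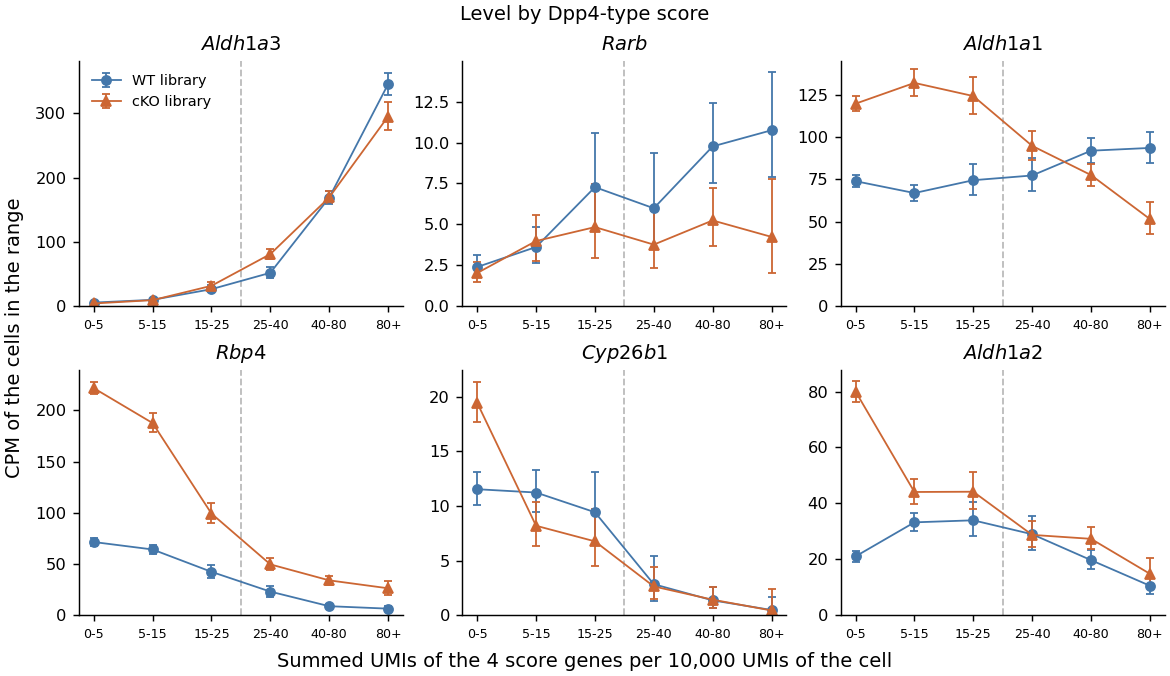
CPM of 6 genes over 6 ranges of the Dpp4-type score (UMIs of the 4 score genes per 10000 UMIs of the cell) in the libraries labelled WT (blue circles) and cKO (orange triangles), with exact Poisson 95% intervals; the dashed line is the limit of 25. Aldh1a3 climbed and Rbp4 and Cyp26b1 dropped with the score in both libraries, while Rarb climbed in the WT-labelled library from 2.38 to 10.8 CPM and stayed between 2.02 and 5.23 CPM in the cKO-labelled library.

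Aldh1a1 (chr19:20492715-20643465, plus strand) was the enzyme carried by the most cells, 50.3% (48.8 to 51.8) of the WT-labelled library and 49.7% (48.2 to 51.2) of the cKO-labelled library. In Dpp4-type cells it stood at 89.3 CPM (84.4 to 94.3) in the WT-labelled library and 79.7 CPM (75.2 to 84.4) in the cKO-labelled library. In other cells it stood at 71.7 CPM (69.0 to 74.5) and 123 CPM (120 to 127), a ratio of 1.72-fold (1.64 to 1.81). The order of the 2 ranges was therefore opposite in the 2 libraries: Dpp4-type cells were 1.24-fold (1.16 to 1.33) higher than other cells in the WT-labelled library and 1.55-fold (1.45 to 1.65) lower in the cKO-labelled library. None of these ratios was called. Along the score, Aldh1a1 went from 74.0 to 93.7 CPM in the WT-labelled library and from 120 to 51.6 CPM in the cKO-labelled library. Cells with 5 or more UMIs numbered 95 and 283 and held 13.7% and 41.2% of its UMIs. The genes most like it were Nid1, Ace and Ret, at r from 0.22 to 0.33 in either library. A near-identical paralog, Aldh1a7, had 0 and 4 UMIs, so reads that fit both genes could have been lost or assigned to either.

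Aldh1a2 (chr9:71215789-71296243, plus strand), the enzyme that supplies most retinoic acid in the embryo, was 19.0 CPM (16.8 to 21.4) in Dpp4-type and 26.3 CPM (24.7 to 28.1) in other cells of the WT-labelled library. It was 25.8 CPM (23.3 to 28.5) and 67.1 CPM (64.5 to 69.9) in the cKO-labelled library. The ratio between the libraries was 1.36-fold (1.16 to 1.59) in Dpp4-type cells and 2.55-fold (2.36 to 2.75) in other cells, and Dpp4-type cells were 2.60-fold (2.33 to 2.91) lower than other cells in the cKO-labelled library. In other cells of the cKO-labelled library, more Aldh1a2 UMIs lay in cells with many of them, and more cells had a UMI. The cells with many were picked by their own count of Aldh1a2, so a general rise would also add to them. In other cells of the cKO-labelled library, 155 of 3127 cells held 5 or more UMIs each and 65.1% of the gene's UMIs, against 44 of 3053 cells and 29.6% in the WT-labelled library. The share of other cells with a UMI was 14.4% (13.2 to 15.7) and 19.6% (18.2 to 21.0), and 7.99% and 13.8% after thinning. No gene reached r of 0.2 with it in both libraries. Summed mesothelial markers, of a cell type known for Aldh1a2, were higher in the cKO-labelled library in other cells and lower in Dpp4-type cells. In other cells 4 of 6 had a UMI in the WT-labelled library (Upk1b and Lrrn4 were at 0). In the cKO-labelled library 5 of 6 had a UMI (Upk1b was at 0). The most frequent of them was found in 0.983% and 1.25% of other cells. Their sum there was 2.17 CPM (1.72 to 2.70) and 3.94 CPM (3.31 to 4.66), and in Dpp4-type cells it was 15.7 and 5.55 CPM. Their part in the level of Aldh1a2 was not tested.

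Read together per cell, a UMI of any of the 3 enzymes was found most often in Dpp4-type cells. Of these, 11.3% in the WT-labelled library and 19.2% in the cKO-labelled library had none of the 3 enzymes, against 44.4% and 39.0% of other cells. After thinning these shares were 30.1% and 37.7% of Dpp4-type cells and 66.1% and 55.0% of other cells. Aldh1a1 and Aldh1a3 were found in the same cell in 484 of 1050 Dpp4-type cells (46.1%) of the WT-labelled library and 325 of 1251 (26.0%) of the cKO-labelled library. After thinning the shares with both were 19.2% (16.8 to 21.8) and 10.5% (8.81 to 12.4). Aldh1a1 and Aldh1a2 were found together in 7.81% of Dpp4-type and 7.04% of other cells of the WT-labelled library. In the cKO-labelled library these shares were 8.47% and 10.6%. Whether any of these overlaps exceeds what the share of each gene alone would give was not tested. Among the 6 of these genes with 500 or more UMIs (Aldh1a1, Aldh1a2, Aldh1a3, Rbp4, Crabp2 and Cyp26b1), the correlations over cells were weak in both libraries, the strongest being that of Aldh1a3 with Rbp4 (r of -0.17 and -0.21).

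Crabp2, which carries retinoic acid to the nucleus (chr3:87948666-87953376, plus strand), followed the pattern of Rbp4 at a lower count. It had 20 UMIs (1.42 CPM, 0.865 to 2.19) in Dpp4-type and 354 UMIs (9.59 CPM, 8.62 to 10.6) in other cells of the WT-labelled library. In the cKO-labelled library it had 66 UMIs (4.47 CPM, 3.46 to 5.69) and 720 UMIs (20.7 CPM, 19.2 to 22.3). The cKO-labelled library was 3.15-fold (1.89 to 5.49) higher in Dpp4-type cells, which was called only narrowly, and 2.16-fold (1.90 to 2.46) higher in other cells. That call was lost with TMM scaling, a minimum of 100 UMIs, the mean over cells, thinning, or a score without Pi16, Sema3c or Anxa3. In Dpp4-type cells 2 of the 7 genes that entered were called between the libraries, Rbp4 and Crabp2, where 3.02% of 12066 genes were (1.64% higher and 1.38% lower). Stra6 and Crabp1 did not enter there. In other cells 2 of the 9 genes were called, Rbp4 and Stra6, where 3.69% of 12371 genes were (2.36% higher and 1.33% lower). At 2-fold 5 of the 9 were called there, Crabp1 lower and Rbp4, Stra6, Aldh1a2 and Crabp2 higher, where 8.75% of genes were.

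Few cells set the level of Crabp2. Within other cells the 1% with the most UMIs held 67.5% of them in the WT-labelled library and 53.8% in the cKO-labelled library, with up to 42 and 54 UMIs in a single cell. In Dpp4-type cells of the cKO-labelled library, 3 cells held 37.9% of its 66 UMIs. Adamts8 was the gene most like it (r of 0.23 and 0.27). Crabp1 (chr9:54764748-54773110, plus strand) was scarce, with 5 and 89 UMIs in Dpp4-type and other cells of the WT-labelled library and 11 and 41 UMIs in those of the cKO-labelled library. Its level in other cells was 2.41 CPM (1.94 to 2.97) and 1.18 CPM (0.846 to 1.60), 2.05-fold (1.40 to 3.04) lower in the cKO-labelled library, and it was opposite to Crabp2 in this respect.

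Cyp26b1, which clears retinoic acid (chr6:84571414-84593908, minus strand), was almost restricted to other cells and was not called between the libraries. It had 20 and 414 UMIs in Dpp4-type and other cells of the WT-labelled library, and 25 and 530 UMIs in those of the cKO-labelled library. In CPM these were 1.42 (0.865 to 2.19) and 11.2 (10.2 to 12.4), and 1.69 (1.10 to 2.499) and 15.2 (14.0 to 16.6). Dpp4-type cells were 7.92-fold (5.06 to 13.1) and 9.003-fold (6.03 to 14.0) lower than other cells. The ratio between the libraries was 1.19-fold (0.637 to 2.27) in Dpp4-type cells and 1.36-fold (1.19 to 1.55) in other cells. Along the score Cyp26b1 dropped from 11.5 CPM to 0.467 CPM in the WT-labelled library and from 19.4 CPM to 0.423 CPM in the cKO-labelled library, opposite to Aldh1a3. Tmem176a was the gene most like it (r of 0.22 and 0.20).

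Rarb, the receptor whose promoter is printed above (chr14:16430839-16819156, minus strand), was the only gene of the 9 besides Aldh1a3 that was higher in Dpp4-type cells of both libraries. It had 130 UMIs (9.21 CPM, 7.69 to 10.9) in Dpp4-type and 121 UMIs (3.28 CPM, 2.72 to 3.92) in other cells of the WT-labelled library. In the cKO-labelled library it had 67 UMIs (4.54 CPM, 3.52 to 5.76) and 98 UMIs (2.82 CPM, 2.29 to 3.43). Dpp4-type cells were 2.81-fold (2.18 to 3.63) higher than other cells in the WT-labelled library and 1.61-fold (1.16 to 2.22) higher in the cKO-labelled library. In Dpp4-type cells the ratio of the cKO-labelled library to that labelled WT was 0.493-fold (0.361 to 0.667), and in other cells it was 0.859-fold (0.652 to 1.13), with an interval that includes equal levels. No cell held more than 3 Rarb UMIs, and a UMI was found in 227 of 4103 cells and 143 of 4378 cells. The 1% of cells with the most UMIs held 26.3% of them in the WT-labelled library and 40% in the cKO-labelled library. With so few UMIs, how evenly the gene was spread over cells cannot be told. Rarb overlaps Top2b on the opposite strand, which stood at 87.8 and 90.9 CPM. Reads from the shared stretch are kept apart only where counting used strand, which the sources used here do not state.

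Between Dpp4-type and other cells, 5 of the 8 genes that entered were called in the WT-labelled library, Aldh1a3 higher and Rbp4, Crabp1, Crabp2 and Cyp26b1 lower, where 8.63% of 12339 genes were (2.65% higher and 5.98% lower). In the cKO-labelled library 5 of 9 were called, Aldh1a3 higher and Rbp4, Stra6, Crabp2 and Cyp26b1 lower, where 8.03% of 12363 genes were (1.94% higher and 6.09% lower). The medians of the absolute log2 ratio were 2.66 over the 8 genes and 2.21 over the 9, against 0.23 and 0.24 over all genes. These counts and medians are not a test of the pathway, since its genes were chosen with earlier results of these data known. Crabp1 entered in the WT-labelled library through its UMIs in other cells, as did Stra6 in the cKO-labelled library.

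**Figure D3:**
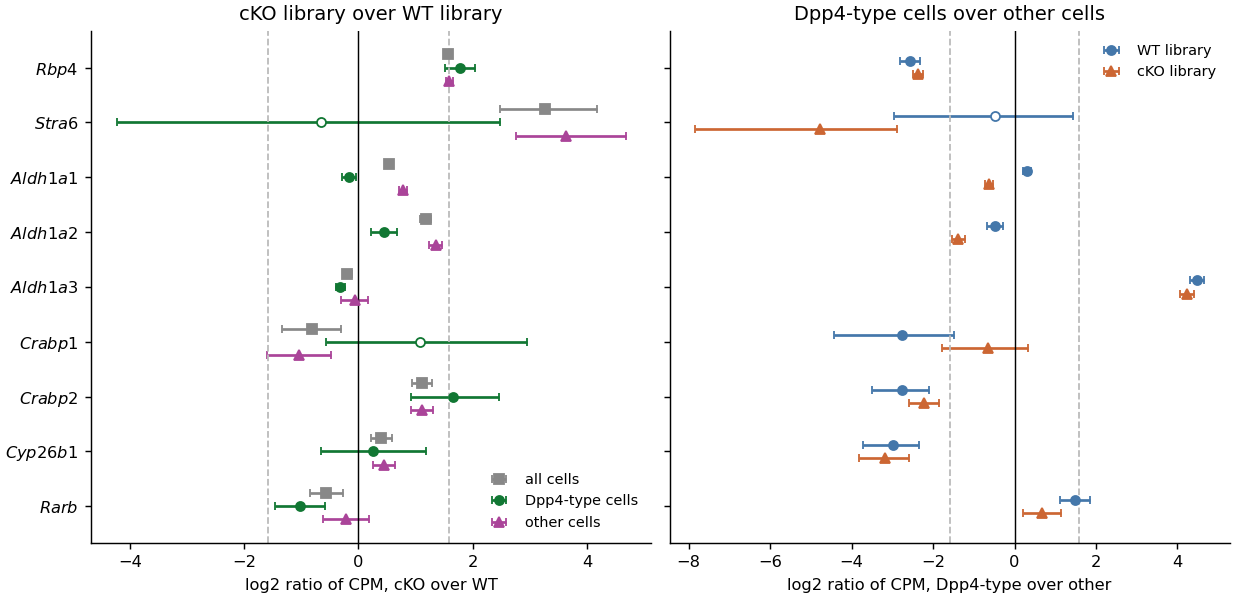
log2 ratio of CPM with exact 95% intervals for the cKO-labelled library over that labelled WT (left; all, Dpp4-type and other cells) and for Dpp4-type over other cells (right; by library); dashed lines mark 3-fold and open symbols genes that did not enter. Rbp4 lay at the 3-fold line in all 3 groups of cells, and the ratios between the ranges of cells reached 4.48 for Aldh1a3.

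As a measure of RNA that FAPs are not known to make in quantity, the myofiber transcripts Ckm, Acta1, Myh4 and Tnnt3 were read. The highest share of cells with a UMI of one of these was 15.2% of Dpp4-type (Tnnt3) and 13.8% of other cells (Acta1) of the WT-labelled library, and 12.0% and 9.40% (Tnnt3) of those of the cKO-labelled library. Shares at or under these are not read as shares of expressing cells. They were those of Stra6, Crabp1, Crabp2, Cyp26b1 and Rarb in all 4 groups, of Aldh1a3 in other cells of both libraries, and of Rbp4 (10.7%) and Aldh1a2 (13.0%) in Dpp4-type cells of the WT-labelled library. No cell type that should lack the 9 genes was present in the libraries, so their own background was not measured.

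The genes were also read over sets of cells, drawn from both ranges. Sets were formed from cells with 3 or more summed UMIs of the genes that name them, or 1 or more of Krt7 and Plet1. The set of Spon1, Cldn2, Hsd11b2 and Angpt4 held 241 cells (5.87%) of the WT-labelled library and 1056 cells (24.1%) of the cKO-labelled library. Rbp4 stood at 112 CPM inside and 46.5 CPM outside it in the WT-labelled library, and at 293 and 102 CPM in the cKO-labelled library, where the set held 49.8% of the gene's UMIs. The ratio between the libraries was 2.62-fold (2.36 to 2.92) inside the set and 2.19-fold (2.08 to 2.31) outside it, both under the 2.97-fold of all cells. Fewer or more cells of a set and a different level per cell both enter a sum over all cells. The set of adipocyte-type cells (Adipoq, Car3, Cidec, Plin1 and Pparg), with 77 cells of the cKO-labelled library, had Rbp4 at 468 CPM against 145 CPM outside but held 6.25% of its UMIs. With 5 such cells in the WT-labelled library, no comparison was made there.

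Crabp2 and Cyp26b1 were high in the set of the tendon-related genes Chad, Tnmd and Cilp2, which held 131 and 285 cells. In the cKO-labelled library, Crabp2 stood at 70.6 CPM (6.08-fold of the cells outside, 5.21 to 7.07) and Cyp26b1 at 42.9 CPM (4.90-fold, 4.04 to 5.92). In the WT-labelled library, Crabp2 stood at 17.2 CPM (2.47-fold, 1.65 to 3.57) and Cyp26b1 at 31.1 CPM (4.04-fold, 3.00 to 5.37). Outside this set the ratio of Crabp2 between the libraries was 1.67-fold (1.45 to 1.91), against 4.11-fold (2.82 to 6.17) inside it. For the Hmcn1 set, given next, this ratio was instead higher outside than inside. Tendon markers moved with the genotype label, as given above, and their part in the level of Crabp2 over all cells was not tested.

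The set of Hmcn1, Meox1 and Etv4, with 735 and 278 cells, also carried Crabp2, at 20.6 CPM (4.67-fold of the cells outside) in the WT-labelled library and 45.7 CPM (3.35-fold) in the cKO-labelled library, and Cyp26b1, at 18.3 CPM (2.88-fold) and 32.8 CPM (3.42-fold). It held 50.8% of the Crabp2 UMIs of the WT-labelled library. Outside this set the ratio of Crabp2 between the libraries was 3.101-fold (2.63 to 3.67), above the 2.16-fold of all cells. Inside it the ratio was 2.22-fold (1.79 to 2.76). The part of this set in the ratio of Crabp2 over all cells was not tested. Of 54 pairs of a gene and a set with 50 or more cells in each library, 4 were over 3-fold higher inside in both libraries. With 20 or more UMIs inside the set in each library there were 2, Cyp26b1 in the Chad set and Crabp2 in the Hmcn1 set. The others were Crabp1 in the Hmcn1 set (38 and 17 UMIs inside, 3.07-fold and 6.56-fold) and in the set of cycling cells (5 and 9 UMIs inside). The share of all genes over this limit was not computed, and the sets were chosen with earlier results known. The counts of pairs are therefore not read as a result about these genes. Aldh1a2 stood at 101 CPM in the 70 cells with Krt7 or Plet1 of the WT-labelled library, of which 34 were Dpp4-type, 4.42-fold (3.56 to 5.43) of the cells outside. The 434 such cells of the cKO-labelled library included 281 Dpp4-type cells, and there it stood at 63.8 CPM, against 53.8 CPM outside. Aldh1a1 stood at 249 CPM in the 280 cells of the cKO-labelled library with Wnt4, Pcsk2 or Rtl4, against 100 CPM outside. Stra6 stood at 8.16 CPM there, against 2.23 CPM outside. The WT-labelled library had 1 such cell, and it held 5 of the 14 Stra6 UMIs of that library.

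**Figure D4:**
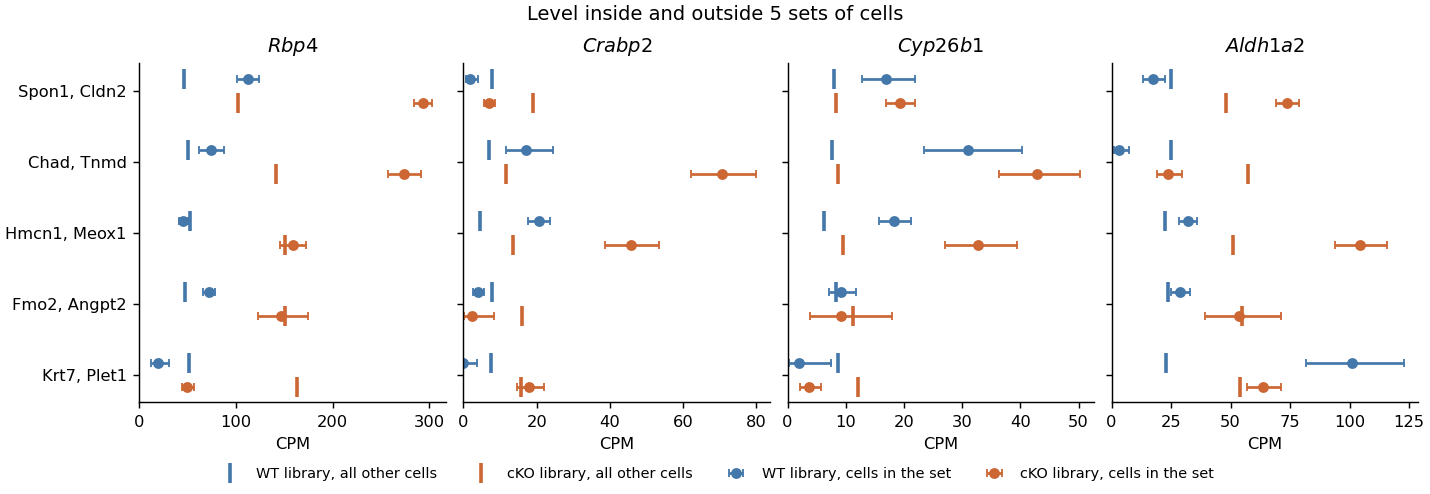
CPM of Rbp4, Crabp2, Cyp26b1 and Aldh1a2 in 5 sets of cells (circles with exact Poisson 95% intervals) and in all cells outside each set (bars), in the libraries labelled WT (blue) and cKO (orange). The sets are named by Spon1 and Cldn2, Chad and Tnmd, Hmcn1 and Meox1, Fmo2 and Angpt2, and Krt7 and Plet1; of these 5, Rbp4 was highest in the Spon1 set of the cKO-labelled library (293 CPM), and Crabp2 and Cyp26b1 in the Chad, Tnmd set (70.6 and 42.9 CPM).

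The other genes of retinoid metabolism and signaling were read from a list of 51, of which 30 entered the comparison between the libraries. Of these 1 was called, Bco1, higher in the cKO-labelled library, beside the 3.12% of all genes. It had 31 UMIs in the WT-labelled library and 111 in the cKO-labelled library, and it passed the filter through the latter. The median log2 ratio was 0.12, near the 0.10 of all genes. Fabp5, which also binds retinoic acid, stood at 17.6 CPM in the WT-labelled library and 35.5 CPM in the cKO-labelled library, a ratio of 2.01-fold (1.86 to 2.18).

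Of 11 retinol dehydrogenases and reductases that entered over all cells, none was called. Within the ranges Adh1 was called lower in Dpp4-type cells (14.5 and 4.20 CPM) and Dhrs9 higher in other cells (10 and 64 UMIs; 6.79-fold, 3.46 to 14.8), which passed the filter there through the cKO-labelled library. Over all cells Adh1 was closest, at 52.7 CPM in the WT-labelled library and 18.5 CPM in the cKO-labelled library, and passed the limit with TMM scaling or after thinning. Rdh10, which makes retinal in the embryo, was 1.85-fold (1.71 to 2.00) higher in the cKO-labelled library. Dhrs3, which returns retinal to retinol, had a ratio of 1.07-fold (0.996 to 1.14). The carotenoid oxygenases were found mainly in Dpp4-type cells: Bco1, which makes retinal from beta-carotene, had 28 UMIs there against 3 in other cells of the WT-labelled library, and 103 against 8 in the cKO-labelled library. Its ratio between the libraries was 3.69-fold (2.46 to 5.68) over all cells.

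All 7 listed receptors other than Rarb entered and none was called, with log2 ratios from -0.91 (Rxrg, 94 UMIs in all) to 0.21 (Rxra). Rara stood at 25.7 CPM in both libraries and Rarg at 36.4 and 31.8 CPM. All 8 co-regulators entered, with log2 ratios from -0.04 (Zfp423) to 0.59 (Ncoa1). Of 22 genes listed as responding to retinoic acid, 12 entered and 1 was called, where 3.12% of all genes were. It was Tbx5, a limb transcription factor, at 6.06 and 19.4 CPM (3.196-fold, 2.81 to 3.65), and the call was lost with TMM scaling. Rai14 was 2.04-fold lower, and Rarres2 stood at 771 and 580 CPM. The median log2 ratio of these 12 was 0.01. Across the ranges of cells, 6 of 30 pathway genes were called in the WT-labelled library and 7 of 30 in the cKO-labelled library, and 2 and 3 of 12 response genes, where 8.63% and 8.03% of all genes were. Bco1 and Bco2 were higher in Dpp4-type cells of both libraries and Adh1, Dhrs3, Rxrg and Tgm2 lower. Rxrg had 3 and 2 UMIs in Dpp4-type and 59 and 30 in other cells, and passed the filter through the latter. Bco1 passed it through its UMIs in Dpp4-type cells, where it was high. In 1 library each, Dhrs9 was higher (WT-labelled) and Rdh5, Fabp5 and Rarres1 were lower (cKO-labelled). Dhrs3 is in both lists.

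**Figure D5:**
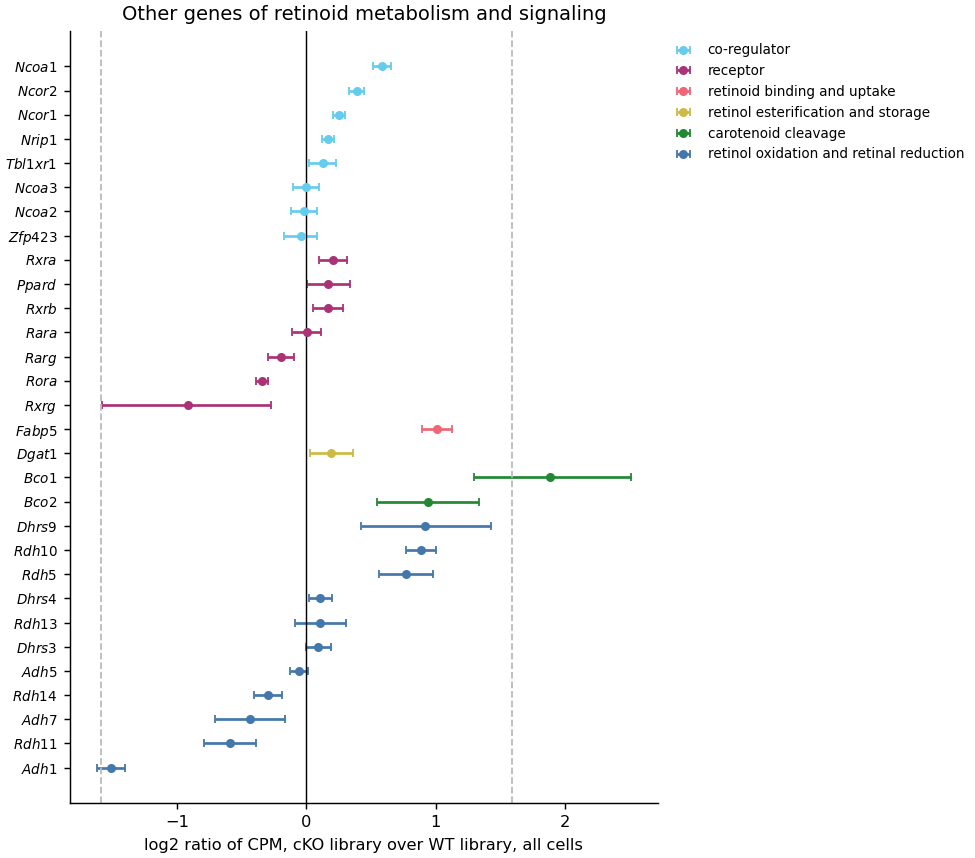
log2 ratio of CPM, library labelled cKO over that labelled WT in all cells, for the 30 other pathway genes that entered, colored by role, with exact 95% intervals; dashed lines mark 3-fold. Bco1 (1.88) lay outside the lines, Adh1 (-1.51) lay just inside, and the receptors and co-regulators lay between -0.91 and 0.59.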

How the data were processed

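FAPs of 2 genotypes were measured with 10x 3′ v3.1 chemistry, 1 library each. Per the labels and methods, the authors aligned reads to mm10 with Cell Ranger 3.1.0, gated cells for quality and doublets in Seurat 3.2.1, removed cells with markers of other cell types, and deposited unnormalized UMI counts for each cell. In the files every cell had 1501 to 4998 detected genes and under 5% mitochondrial UMIs; no further filter or doublet call was applied. Labels and methods name different sequencers and digestion times.

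CPM is a gene's summed count divided by the total of the same cells. Intervals are exact Poisson (levels), Clopper-Pearson (shares) or conditional (ratios) at 95%. A count of 0 was set to a floor of 3 counts in ratios. Positions of genes came from GENCODE vM21, and sequence from RefSeq (GRCm38.p6). The genes named are the 9 genes, the score genes, list genes over 3-fold or with 500 or more UMIs as examples, and up to 3 genes most like each of the 9 (Pearson r of log values, at 0.2 or more in each library, among 9741 genes). 1 gene of the pathway list is not reported here. The members and lists were chosen with earlier results of these data known. Alternatives changed scaling (TMM, edgeR 4.0.16), fold, filter, depth, cells and score. The ratios were tested on simulated data. Python 3.11.15, numpy 2.4.6, scipy 1.17.1, matplotlib 3.10.9 and R 4.3.3 were used.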

Additional observations from a re-analysis of the deposited data

Results flagged for a closer look

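The differences given here ran in opposite directions in 2 groups, and none of these oppositions was tested, since each group is 1 library. The log2 ratio of Aldh1a1 between the libraries (cKO over WT) was -0.16 in Dpp4-type cells and 0.78 in other cells, and the first became 0.05 when cells with a score of 15 or more were taken as Dpp4-type. Its log2 ratio of Dpp4-type to other cells was 0.32 in the WT-labelled library and -0.63 in the cKO-labelled library. That of Stra6 between the libraries was -0.65 in Dpp4-type cells, from 3 and 2 UMIs, and 3.64 in other cells. That of Crabp1 was 1.07 in Dpp4-type cells, from 5 and 11 UMIs, and -1.03 in other cells. The Dpp4-type values of Stra6 and Crabp1 changed sign under several definitions of the score and carry no direction.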

How the results depend on the processing

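No paired analysis was possible because the 2 libraries share no replicate pair to block on, and no result came from a test. The 5 calls of each library between Dpp4-type and other cells stayed within 4 to 6 under every alternative. Between the libraries over all cells the count of 1 changed only at 2-fold (4 genes). In Dpp4-type cells the count of 2 became 1 with TMM scaling, a minimum of 100 UMIs, the mean over cells, thinning to 5000 UMIs, a score of 15 or more, and a score without Pi16, Sema3c or Anxa3; Rbp4 was the gene kept, except with a score of 15 or more, where it was Crabp2. In other cells the count of 2 became 1, Stra6, with TMM scaling, the mean over cells, without the 2% of cells with the most UMIs, without cycling cells, thinned to 5000 UMIs, with a score of 40 or more, with a score without any 1 of the 4 genes, and without cells with adipocyte transcripts (an alternative chosen after seeing the data), and 5 at 2-fold. Rbp4 itself lay between log2 1.44 and 1.63 in all and other cells, so its place above or below 3-fold depends on the setting. The pathway count of 1 became 2 with TMM scaling or thinned to 5000 UMIs (Adh1 added), 3 at 2-fold and 6 with no filter; the response count of 1 became 0 with TMM scaling and 2 at 2-fold or with no filter. TMM shifted log2 ratios by -0.11 in other cells and by -0.10 over all cells. Of 657 values of single genes under alternatives, 576 stayed within the counting interval, 81 moved and none of the called ones changed direction. Intervals of shares did not overlap between the libraries for 6 genes thinned to 5000 UMIs and 5 thinned to 8000. At 8000 Aldh1a1 and Aldh1a3 dropped out and Rarb came in. No such count was made over all genes, so these numbers have no background. The limit of these data is the single library per genotype: mice, sort and batch cannot be told apart from genotype.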
